A study of Homo sapiens with 48 samples.

Results

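FADS1, FADS2 and FADS3 are the human fatty acid desaturase genes that lie side by side on chromosome 11, and they are described here across 16 groups of RNA-sequencing libraries. The genes were chosen by name, and with the result in view that FADS2 mRNA falls steeply when UPF1 is depleted and is restored in part, so the values under UPF1 siRNA are given as a description with no test. All 3 genes are in the table of 58870 genes, and all 3 were among the 16697 genes that passed a filter on low counts. By fitted log2 change FADS2 was not the single largest fall of the table: in the line labelled CLIP it ranked 14 of the 16697 genes.

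Desaturases and elongases turn the essential plant fatty acids, linoleic and alpha-linolenic acid, into the long polyunsaturated fatty acids of cell membranes. FADS2 inserts the first double bond and is the rate-limiting step, ELOVL5 lengthens the product, FADS1 inserts a later double bond to give arachidonic and eicosapentaenoic acid, and ELOVL2 lengthens these further. FADS3 acts on the sphingoid base of ceramides. Transcription of FADS1 and FADS2 is known to be driven by the sterol-regulated factor encoded by SREBF1 and by nuclear receptors.

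All groups are Flp-In 293 T-REx cells, derived from human embryonic kidney and made to take up 1 transgene at a fixed genomic site, and all keep the endogenous UPF1 gene. UPF1 is a helicase needed for nonsense-mediated mRNA decay. The 8 lines are named F192E, FE-ER, I757R, IR-ER, E797R, LECY, WT and CLIP. The first 6 names denote CLIP-tagged UPF1 variants and WT the tagged wild-type protein. The line named CLIP is labelled with no UPF1, and its UPF1 mRNA is given next. Each line received 40 nM of siRNA against endogenous UPF1 (siUPF1) or non-targeting siRNA (siNT) and was harvested after 72 h, with 3 replicates per group, called biological in the study's design, and 48 libraries in all. Nothing else says that they came from separate cultures, so p-values measure the spread between these libraries. The transgene promoter, its inducer and the number of clones per line are not given in the sources used here. Total RNA was depleted of ribosomal RNA before sequencing.

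CPM are counts per 1000000 counts of the library in genes that passed the filter, after the scaling between libraries described under processing. UPF1 mRNA in CLIP was 20.4, 21.3 and 19.5 CPM with siUPF1, against 111, 97.2 and 109 CPM with siNT, which left 19.3%. In the 7 lines with a UPF1 transgene, UPF1 mRNA with siUPF1 was 90.2 to 111% of that with siNT. Transgene and endogenous reads are summed in this value, so it does not show the endogenous knockdown in those lines. Libraries held 6016999 to 14551820 estimated counts. Each library correlated with its own group at 0.979 to 0.990 (Pearson r of log2 CPM). The 7 embryonic kidney and neural genes known from 293 cells were all expressed, with summed levels of 714 to 1060 CPM with siUPF1 and 768 to 990 CPM with siNT. VIM and NEFL were the highest of these, with means of 553 and 273 CPM over all libraries. PAX2, LHX1 and NEFM were low, with means of 5.17, 1.91 and 1.15 CPM. Of the defining markers of other cells, CD3E was at 0 in all libraries, and the 5 blood markers summed to at most 1.32 CPM. The 5 hepatocyte markers summed to at most 0.635 CPM and the 5 adipocyte markers to at most 2.04 CPM. The 7 fibroblast markers summed to 4.04 to 13.2 CPM with siUPF1 and 5.72 to 10.9 CPM with siNT, and 3 of them passed the filter. DCN and COL1A2 were at or near 0. PDGFRA, COL3A1 and COL1A1 were the highest of the 7, with means of 3.16, 2.92 and 2.31 CPM, above those of LHX1 and NEFM.

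In the GENCODE 29 annotation of hg38, FADS2 (ENSG00000134824.14) spans chr11:61792980-61867354 on the plus strand. FADS1 (ENSG00000149485.18) spans chr11:61799625-61829318 on the minus strand and lies wholly inside the FADS2 span. FADS3 (ENSG00000221968.9) spans chr11:61873519-61892051 on the minus strand. The exons of FADS1 and FADS2 share 490 bp, which is 4.79% of the exon length of FADS1 and 4.44% of that of FADS2. Whether the authors counted by strand is not given in the sources used here, so reads from these 490 bp cannot be told apart. FADS2 also shares 49 exonic bp with FEN1 on the same strand. One FADS1 transcript is annotated as a target of nonsense-mediated decay and no FADS2 or FADS3 transcript is. FADS2 has 4 and FADS3 has 5 transcripts annotated as retaining an intron.

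The RefSeq starts of FADS2 and FADS1 used here lie close together on opposite strands. These start regions are shown because both mRNAs were lower with siUPF1 while that of the separately placed FADS3 was not. Each runs 5′ to 3′ on the gene's own strand in build GRCh38.p14, with 250 bases before the annotated start and 50 after it. The FADS1 window is chr11:61816954-61817253 (minus strand), the FADS2 window chr11:61816154-61816453 (plus strand) and the FADS3 window chr11:61891496-61891795 (minus strand). RefSeq also lists an upstream FADS2 window that overlaps this one. The GENCODE annotation has further FADS2 transcripts that start outside the window, among them at chr11:61792980 and chr11:61827761. Which FADS2 start these cells use was not tested, so a start region shared with FADS1 is not shown for the FADS2 mRNA measured here. Capitals mark matches to the motifs described after the sequences.
FADS1: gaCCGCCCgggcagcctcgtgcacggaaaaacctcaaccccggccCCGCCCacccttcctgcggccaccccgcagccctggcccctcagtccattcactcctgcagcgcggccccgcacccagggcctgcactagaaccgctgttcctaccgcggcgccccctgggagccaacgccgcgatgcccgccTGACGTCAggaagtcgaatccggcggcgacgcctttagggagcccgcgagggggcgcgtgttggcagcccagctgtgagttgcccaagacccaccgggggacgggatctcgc
FADS2: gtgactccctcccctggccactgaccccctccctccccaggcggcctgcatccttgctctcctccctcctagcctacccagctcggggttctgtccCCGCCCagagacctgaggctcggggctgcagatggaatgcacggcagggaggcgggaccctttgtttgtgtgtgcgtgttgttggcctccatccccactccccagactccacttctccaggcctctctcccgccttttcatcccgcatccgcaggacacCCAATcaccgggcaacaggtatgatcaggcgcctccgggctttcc
FADS3: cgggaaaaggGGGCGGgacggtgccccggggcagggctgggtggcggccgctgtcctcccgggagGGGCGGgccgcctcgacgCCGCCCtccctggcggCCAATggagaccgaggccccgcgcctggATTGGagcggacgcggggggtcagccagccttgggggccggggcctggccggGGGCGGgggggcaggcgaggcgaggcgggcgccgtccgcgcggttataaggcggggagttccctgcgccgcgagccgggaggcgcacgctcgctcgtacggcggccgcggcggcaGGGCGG

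Both strands were searched for 6 motifs, and no 2 of the matches overlapped. Positions count from 1 at the annotated start, with negative numbers before it. FADS1 held the palindromic cyclic AMP response element TGACGTCA at −62, which is in 1.85% of the 35116 RefSeq human promoter windows of the same length, and 2 GC boxes (GGGCGG). FADS2 held 1 GC box at −154 and 1 CCAAT box (CCAAT) at 6. FADS3 held 5 GC boxes and 2 CCAAT boxes. GC boxes occur in 44.95% and CCAAT boxes in 34.6% of all windows. No sterol regulatory element written as TCACNCCAC, E-box (CACGTG) or TATA box (TATAAA) is spelled out in these 3 windows. Over all windows their shares were 1.13%, 7.26% and 11.5%. The regions around the FADS2 starts outside the printed window were not searched, so the absence of these motifs holds for the printed windows only. G and C made up 72.0% of the FADS1 window, 65.0% of the FADS2 window and 81.0% of the FADS3 window.

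With siNT the 3 genes kept one order on the CPM per kb scale, which divides CPM by the summed length of all annotated exons (10.2 kb for FADS1, 11.03 kb for FADS2 and 6.28 kb for FADS3). FADS1 averaged 4.77 to 5.72 CPM per kb over the 8 lines, FADS2 3.70 to 4.51 and FADS3 0.616 to 1.08. With siUPF1 the ranges were 2.04 to 2.58 CPM per kb for FADS1, 0.264 to 0.948 for FADS2 and 0.984 to 1.22 for FADS3. On this scale FADS2, the second highest of the 3 with siNT, was the lowest with siUPF1 in every line. The order depends on the division by length. In mean CPM with siUPF1, FADS2 was above FADS3 in WT (9.10 against 6.41 CPM), E797R, IR-ER and I757R. It was below FADS3 in CLIP (2.91 against 6.43 CPM), LECY, F192E and FE-ER. The exon length includes isoforms that these cells may not use.

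**Figure D1:**
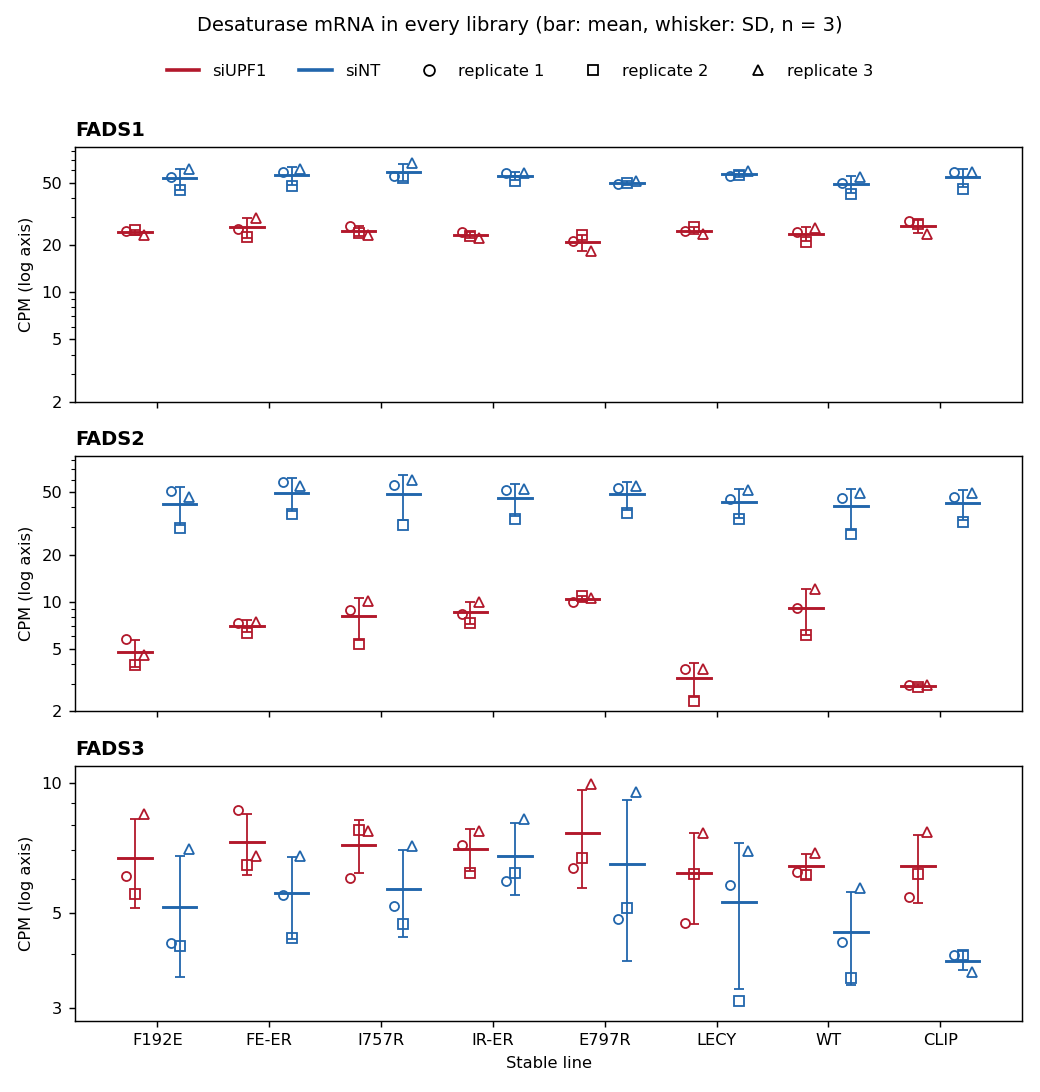
CPM of FADS1, FADS2 and FADS3 (log axes) in each of the 48 libraries, by stable line, with siUPF1 (red) left of siNT (blue); symbols mark the replicate number, bars the mean and whiskers the SD of 3 replicates. All FADS1 and FADS2 values with siUPF1 lie below those with siNT of the same line, the FADS2 values with siUPF1 range from 2.34 to 12.1 CPM, and the FADS3 groups overlap in 6 of 8 lines.

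FADS2 mRNA was lower with siUPF1 than with siNT in all 8 lines and in 24 of 24 pairs of replicates with the same number, with values that differed between the lines. Across all genes the share with an adjusted p under 0.05 (edgeR quasi-likelihood test, Benjamini-Hochberg), here termed called, was 21.8% for F192E, 18.6% for FE-ER, 15.9% for I757R, 17% for IR-ER, 16.1% for E797R, 29.4% for LECY, 15.4% for WT and 33.7% for CLIP. These contrasts chose the gene, so nothing is read from its counts against those shares. In CLIP, FADS2 had 2.94, 2.85 and 2.94 CPM with siUPF1, against 46.5, 32.1 and 49.5 CPM with siNT. In LECY it had 3.71, 2.34 and 3.71 CPM with siUPF1, against 44.98, 33.7 and 51.8 CPM with siNT. These were the lines with the least FADS2 mRNA with siUPF1, 6.82% of the siNT mean in CLIP and 7.48% in LECY. The F192E line held 5.81, 3.94 and 4.602 CPM with siUPF1, against 50.7, 29.4 and 46.8 CPM with siNT, or 11.3%. For FE-ER the values were 7.36, 6.33 and 7.43 CPM with siUPF1, against 58.0, 36.4 and 54.6 CPM with siNT, or 14.2%. All 3 F192E libraries with siUPF1 lay above all of LECY and below all of FE-ER.

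The other 4 lines kept more FADS2 mRNA. I757R had 8.86, 5.40 and 10.1 CPM with siUPF1, against 55.5, 30.8 and 59.4 CPM with siNT, which left 16.7%. IR-ER had 8.35, 7.34 and 9.98 CPM with siUPF1, against 51.3, 33.7 and 52.4 CPM with siNT, which left 18.7%. Their ranges with siUPF1 overlapped each other and that of WT. E797R had 9.96, 10.9 and 10.5 CPM with siUPF1, against 53.4, 36.7 and 54.9 CPM with siNT, which left 21.6%. WT had 9.08, 6.11 and 12.1 CPM with siUPF1, against 45.8, 27.2 and 49.5 CPM with siNT, which left 22.3%. In no line did the siUPF1 and siNT ranges overlap, and the closest approach was in WT, at 12.1 CPM with siUPF1 and 27.2 CPM with siNT. In bulk RNA, fewer cells that express the gene and less RNA per cell cannot be told apart. Expected counts behind these values were 16 to 103 per library with siUPF1 and 211 to 695 with siNT.

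Fitted log2 changes of FADS2 (siUPF1 over siNT, with SE) were −3.13 ± 0.29 for F192E, −2.82 ± 0.28 for FE-ER, −2.56 ± 0.27 for I757R, −2.43 ± 0.28 for IR-ER and −2.21 ± 0.27 for E797R. They were −3.71 ± 0.31 for LECY, −2.14 ± 0.28 for WT and −3.87 ± 0.31 for CLIP. The fall in WT was smaller than that in CLIP by 1.73 on the log2 scale (SE 0.43, 95% interval 0.857 to 2.601), and the level with siUPF1 was 3.16 times that of CLIP. LECY differed from WT by −1.57 (95% interval −2.44 to −0.70) and from CLIP by 0.16 (−0.79 to 1.11). F192E differed from WT by −0.99 (−1.80 to −0.17), while the intervals for FE-ER, I757R, IR-ER and E797R against WT included 0. That fit did not pair libraries by replicate number. Within same-numbered pairs, the FADS2 left was 19.82 to 24.47% in WT, 12.7 to 17.39% in FE-ER and 15.96 to 17.53% in I757R. The ranges of IR-ER (16.26 to 21.79%) and E797R (18.65 to 29.72%) overlapped that of WT. The E797R change differed from that of WT by −0.07 (−0.87 to 0.72). These intervals describe a gene that was picked for this pattern and are no test of it.

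CLIP, LECY, F192E and FE-ER stood in this order both by the size of the FADS2 fall and by the share of genes called, and WT was last by both. The 3 lines between them, I757R, IR-ER and E797R, were in another order by each measure. FADS2 ranked among all 16697 genes, from the most negative change, at 18 for F192E, 15 for FE-ER, 26 for I757R, 31 for IR-ER, 62 for E797R, 10 for LECY, 65 for WT and 14 for CLIP.

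**Figure D2:**
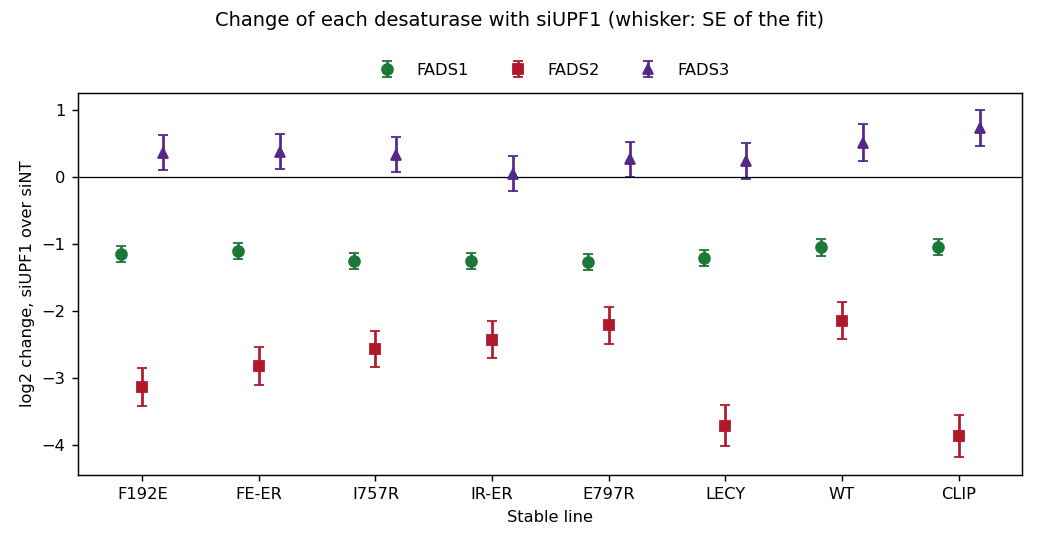
Fitted log2 change (siUPF1 over siNT) of FADS1, FADS2 and FADS3 in each of the 8 stable lines; whiskers show the SE of the fit over 48 libraries. FADS1 lies between −1.26 and −1.04 in every line, FADS2 ranges from −3.87 in CLIP to −2.14 in WT, and FADS3 lies between 0.05 and 0.73.

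FADS2 levels also moved with the replicate number. Replicate 2 was the lowest of the 3 with siUPF1 in 7 of 8 lines and with siNT in 8 of 8 lines, on average 0.38 lower on the log2 scale with siUPF1 and 0.66 lower with siNT than the mean of replicates 1 and 3. SREBF1, whose product drives lipid synthesis genes, was lowest in replicate 2 in 8 of 8 lines with either siRNA, and so were SCD, FASN and INSIG1. What replicate 2 shares is not given in the labels, and its part in the FADS2 values was not tested. Within replicate 2 the FADS2 level with siUPF1 was 6.95 to 29.7% of that with siNT over the 8 lines, within replicate 1 it was 6.32 to 19.8%, and within replicate 3 it was 5.95 to 24.5%. Without all 16 replicate 2 libraries, an alternative chosen after seeing the data, the log2 change was −2.16 in WT and −4.02 in CLIP.

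FADS1 mRNA was also lower with siUPF1 in all 8 lines and in 24 of 24 pairs, by a similar factor in each. In E797R it had 21.2, 23.1 and 18.2 CPM with siUPF1, against 48.9, 49.4 and 51.3 CPM with siNT. In WT it had 24.1, 21.0 and 25.6 CPM with siUPF1, against 49.4, 42.4 and 54.7 CPM with siNT. In CLIP it had 28.3, 27.4 and 23.6 CPM with siUPF1, against 58.3, 45.9 and 58.6 CPM with siNT. The level left was 41.8% in E797R, 48.2% in WT and 48.7% in CLIP, and the other 5 lines fell between these values. LECY held 24.7, 26.0 and 23.5 CPM with siUPF1, against 55.0, 56.1 and 59.5 CPM with siNT. Libraries of F192E had 24.6, 24.8 and 23.0 CPM with siUPF1, against 54.1, 44.8 and 60.7 CPM with siNT. Those of FE-ER had 25.4, 22.6 and 29.8 CPM with siUPF1, against 58.3, 47.4 and 61.2 CPM with siNT. Within each of these lines every siUPF1 value was below every siNT value. I757R held 26.6, 23.9 and 23.3 CPM with siUPF1, against 55.0, 53.9 and 66.6 CPM with siNT. The last line, IR-ER, held 24.2, 23.0 and 22.3 CPM with siUPF1, against 57.4, 51.4 and 57.3 CPM with siNT. The siUPF1 and siNT ranges did not overlap in 8 of 8 lines.

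The log2 change of FADS1 lay between −1.26 in E797R and −1.04 in CLIP, a spread of 0.23 between lines, with SEs near 0.12. For FADS2 the spread between lines was 1.73. The FADS1 change in WT differed from that in CLIP by −0.01 (SE 0.17, 95% interval −0.36 to 0.34), and that in LECY differed from WT by −0.16 (−0.51 to 0.19). Each of the 6 variants had an interval against WT that included 0. In the order of mean levels with siUPF1, E797R, IR-ER, WT, F192E, I757R, LECY, FE-ER and CLIP from low to high, every neighbouring pair of lines overlapped.

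FADS3 mRNA was low and higher on average with siUPF1. In WT it had 6.23, 6.11 and 6.90 CPM with siUPF1, against 4.27, 3.53 and 5.70 CPM with siNT. In CLIP it had 5.43, 6.16 and 7.70 CPM with siUPF1, against 3.98, 3.98 and 3.64 CPM with siNT. WT and CLIP were the 2 of 8 lines in which the groups did not overlap. LECY, with 4.74, 6.14 and 7.67 CPM with siUPF1 against 5.80, 3.11 and 6.95 CPM with siNT, is an example of overlap. Over all lines the siUPF1 value exceeded the siNT value of the same replicate number in 22 of 24 pairs. Shares of all genes with such ranges or pairs are not given here, so nothing is read from these counts. The lowest, median and highest of 24 libraries were 4.74, 6.59 and 9.95 CPM with siUPF1 and 3.11, 5.15 and 9.54 CPM with siNT. Replicate 3 was highest in 6 of 8 lines with siUPF1 and 7 of 8 lines with siNT. WT and CLIP had the lowest means with siNT, 4.50 and 3.87 CPM. With siUPF1 their means were 6.41 and 6.43 CPM, within a range of 6.18 to 7.67 CPM over the 8 lines. The log2 change of FADS3 was 0.52 ± 0.28 in WT and 0.73 ± 0.27 in CLIP (SE), and 0.05 to 0.38 in the other 6 lines. In LECY it was 0.24, and −0.03 without LECY siNT replicate 2. In IR-ER it was 0.05, and −0.05 without IR-ER siNT replicate 1, −0.03 without IR-ER siNT replicate 2 and −0.04 without IR-ER siUPF1 replicate 3. Expected counts behind these values were 26 to 88.8 per library.

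Expression of the UPF1 variants by itself was compared with siNT alone, a setting not used to choose the genes, although FADS2 was chosen on contrasts that include these same siNT libraries. No desaturase was called as different between any UPF1 line and CLIP (0 of 21 comparisons, edgeR's quasi-likelihood test), or between any variant and WT (0 of 18). The smallest adjusted p was 0.995 (edgeR, Benjamini-Hochberg), and DESeq2 called none of these either. Over all genes the share called against CLIP was 0.018% for F192E, 0.012% for FE-ER, 0.024% for I757R, 0.024% for IR-ER, 0.018% for E797R, 0.0299% for LECY and 0.012% for WT. Against WT it was 0% for F192E, 0.00599% for FE-ER, 0.00599% for I757R, 0.00599% for IR-ER, 0.018% for E797R and 0.00599% for LECY. A count of 0 members is near that background. The comparisons with CLIP share its 3 siNT libraries, and those with WT share the 3 of WT.

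FADS2 with siNT averaged 40.8 ± 11.9 CPM in WT and 42.7 ± 9.28 CPM in CLIP (SD, n = 3 each), a log2 difference of −0.07 with a 95% interval of −0.56 to 0.42. Over the 7 UPF1 lines its difference from CLIP ran from −0.07 to 0.23. FADS1 averaged 48.8 ± 6.14 CPM in WT and 54.3 ± 7.28 CPM in CLIP (SD, n = 3 each), and its differences from CLIP ran from −0.15 to 0.11. With siNT every pair of neighbours in the order of mean levels overlapped, for each of the 3 genes. FADS3 was higher than CLIP in 7 of 7 lines by 0.22 to 0.81, and at an unadjusted p under 0.05 in 2 of them. These were IR-ER, with 5.92, 6.17 and 8.26 CPM against 3.98, 3.98 and 3.64 CPM in CLIP, and E797R, with 4.84, 5.12 and 9.54 CPM. Against WT, an unadjusted p under 0.05 was reached by FADS1 in I757R (log2 difference 0.26) and FADS3 in IR-ER (0.59), and neither passed the adjustment.

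ELOVL2, the elongase that acts after FADS1, had the pattern most like that of FADS2. Pearson r of log2 CPM over the 16 group means was 0.996, the highest of all other genes tested. The 16 points form 2 clusters by siRNA: over the 8 siUPF1 means r was 0.988, and over the 8 siNT means it was −0.19. The points share libraries and scaling, and 8.46% of all genes had r above 0.9 with FADS2, so r is a description here. Among the next in likeness to FADS2 were TMEM170B and SALL2 (r = 0.994 each) and VANGL2 (0.992). ELOVL2 averaged 19.6 ± 2.87 CPM with siUPF1 and 36.2 ± 2.01 CPM with siNT in WT, and 10.9 ± 1.49 CPM with siUPF1 and 36.2 ± 2.29 CPM with siNT in CLIP (SD, n = 3 each).

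ELOVL2 fell in 8 of 8 lines, by 0.89 on the log2 scale in WT and by 1.73 in CLIP, and all 24 siUPF1 libraries (9.28 to 22.4 CPM) lay below all 24 siNT libraries (34.1 to 42.9 CPM). It fell less in WT than in CLIP by 0.84 ± 0.17 (SE, adjusted p = 0.00126, edgeR quasi-likelihood test of the interaction). FADS2 was chosen for this pattern, and the likeness of ELOVL2 to it was read from these same libraries. The interaction test is therefore no independent support for that likeness. In that test 4% of all genes were called (0.767% higher and 3.23% lower), or 668, against 1594 with the replicate number as a block and 299 without all replicate 2 libraries. Of the 73 pathway genes described next, 3 were called higher and 1 lower in it, and 6 and 2 with the block. Unlike FADS2, ELOVL2 was not lowest in replicate 2 in any line with siNT, and in 1 of 8 with siUPF1. The genes most like FADS1 were MGME1 (r = 0.991), SCAMP5 (0.990) and MDK (0.989), with 6.51% of genes above 0.9. Those most like FADS3 were ITPR3 (0.923), GNE (0.922) and BICD1 (0.919), with 0.0839% above 0.9. Over the 16 group means FADS1 and FADS2 had r = 0.918, FADS1 and FADS3 −0.71, and FADS2 and FADS3 −0.60.

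**Figure D3:**
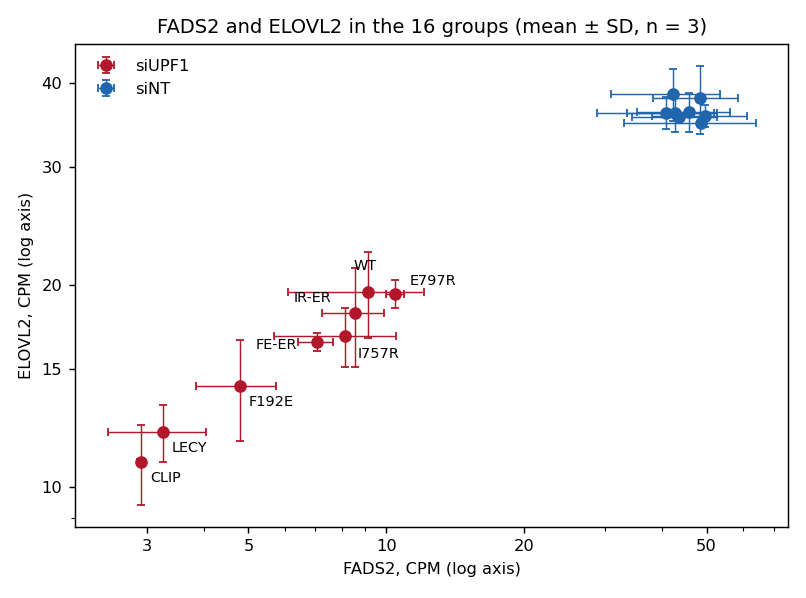
Mean CPM of FADS2 (x, log axis) and ELOVL2 (y, log axis) in the 16 groups, with SD over 3 replicates, for siUPF1 (red, labelled by line) and siNT (blue). CLIP (2.91 CPM FADS2, 10.9 CPM ELOVL2) has the lowest siUPF1 means of both genes, E797R (10.5 and 19.4 CPM) has the highest for FADS2 and WT (9.10 and 19.6 CPM) the highest for ELOVL2, and the 8 siNT means form a separate cluster.

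The other genes of the pathway were read from 7 lists of 83 genes, of which 73 were tested. With siUPF1, 11 rose and 9 fell in F192E, 12 and 8 in FE-ER, 11 and 8 in I757R, 11 and 8 in IR-ER, 12 and 7 in E797R, 13 and 11 in LECY, 13 and 6 in WT and 14 and 13 in CLIP. Of all genes, 11.8% rose and 10.1% fell for F192E, 10.1% and 8.52% for FE-ER, 8.13% and 7.79% for I757R, 9.21% and 7.8% for IR-ER, 8.34% and 7.73% for E797R, 15.8% and 13.6% for LECY, 8.43% and 6.98% for WT, and 18.1% and 15.6% for CLIP. The share of pathway genes called was 26 to 37% over the 8 lines, against 15.4 to 33.7% of all genes. Median log2 changes of the 73 genes were 0.09 in WT and −0.04 in CLIP, against −0.01 and −0.03 for all genes. The replicate numbers paired the libraries, and a fit with the replicate number as a block called more. It had 20 higher in F192E, 19 higher and 14 lower in FE-ER, 14 lower in I757R, 11 lower in E797R, 22 higher in LECY and 20 higher and 10 lower in WT. Of the counts higher, E797R had 6 without E797R siUPF1 replicate 1 and 7 without E797R siNT replicate 2, I757R 6 without I757R siNT replicate 2, and IR-ER 6 without IR-ER siNT replicate 2 or IR-ER siUPF1 replicate 2 and 7 without IR-ER siNT replicate 1. LECY had 8 without LECY siUPF1 replicate 1, and WT 7 without WT siNT replicate 2 and 8 without WT siUPF1 replicate 1. Over all genes the block gave 5773 calls for F192E, 5192 for FE-ER, 4756 for I757R, 4715 for IR-ER, 4583 for E797R and 4356 for WT, against 3648, 3110, 2658, 2839, 2682 and 2572 without it.

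Of the 12 elongation genes tested, ELOVL2 and ELOVL4 fell in all 8 lines and HACD2, a dehydratase of the elongation cycle, rose in all 8. ELOVL4, which builds very long fatty acids, averaged 14.4 ± 2.03 CPM with siUPF1 and 26.4 ± 4.13 CPM with siNT in WT. In CLIP it averaged 11.1 ± 2.29 CPM with siUPF1 and 29.4 ± 2.66 CPM with siNT, a log2 change of −1.40 (adjusted p = 1.39e-08, edgeR). ELOVL5, which lengthens the product of FADS2, rose in 2 of 8 lines, and its log2 change was 0.14 in WT and 0.15 in CLIP. HACD3 rose in 4 lines, with 299 ± 16.9 CPM with siUPF1 and 293 ± 10.4 CPM with siNT in WT, and 419 ± 25.7 CPM with siUPF1 and 325 ± 16.03 CPM with siNT in CLIP. The HACD2 call in CLIP (log2 change 0.39, adjusted p = 0.014, edgeR) was lost without CLIP siNT replicate 3 (adjusted p = 0.059), without CLIP siUPF1 replicate 2 (0.0977) and without all replicate 2 libraries (0.0548).

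Desaturases receive electrons that are passed on by a cytochrome and its reductases. Of 6 such genes tested, the reductase CYB5R4 fell in 8 of 8 lines, to 27.7 ± 0.60 CPM with siUPF1, against 47.7 ± 5.56 CPM with siNT, in WT, and to 24.1 ± 4.04 CPM with siUPF1, against 45.1 ± 3.24 CPM with siNT, in CLIP. CYB5A, a cytochrome gene of this list, fell in 2 of 8 lines. It had 19.4, 27.1 and 24.2 CPM with siUPF1 and 21.3, 21.8 and 23.8 CPM with siNT in WT, against 13.4, 14.5 and 13.7 CPM with siUPF1 and 17.9, 23.6 and 27.4 CPM with siNT in CLIP. The siUPF1 and siNT values overlapped in WT and not in CLIP. CYB5R1 rose in CLIP by 0.44 (adjusted p = 0.0086, edgeR), a call lost with no filter on low counts (adjusted p = 0.055), and 3 of 8 lines had an unadjusted p under 0.05. Its change in WT differed from that in CLIP by −0.42 (adjusted p = 0.29, edgeR). CYB5R3, the main reductase, was called in none of the 8 lines by edgeR, with 1 line at an unadjusted p under 0.05, and its log2 change in CLIP was 0.12.

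Among 9 other desaturases and related oxidases, SCD, which makes monounsaturated fatty acids, had 439 ± 128 CPM with siUPF1 and 427 ± 113 CPM with siNT in WT, and 443 ± 72.9 CPM with siUPF1 and 463 ± 78.2 CPM with siNT in CLIP. Its log2 changes over the 8 lines ran from −0.26 to 0.07, with no call by edgeR and no unadjusted p under 0.05. MSMO1, a sterol oxidase of cholesterol synthesis, had 20.2, 19.9 and 20.6 CPM with siUPF1 and 16.3, 12.7 and 14.2 CPM with siNT in WT. In CLIP it had 10.9, 11.02 and 11.1 CPM with siUPF1 and 18.6, 13.5 and 13.4 CPM with siNT. It thus rose in WT (adjusted p = 0.0486, edgeR) and fell in CLIP (adjusted p = 0.0458, edgeR). The CLIP call was lost without any 1 of CLIP siNT replicate 1, where the log2 change was −0.28, or CLIP siUPF1 replicates 1, 2 or 3, with adjusted p between 0.0977 and 0.277 (edgeR), with median-of-ratios size factors (0.0509), with DESeq2 (0.0508) and with no filter (0.088). No other gene of this list fell in CLIP and none rose there, while 3 rose in WT. SCD5, a second stearoyl-CoA desaturase, rose in 5 of 8 lines (log2 changes 0.06 to 0.54) and TMEM189, the desaturase of plasmalogen synthesis, in 6 of 8 (0.20 to 0.52). Both were chosen after their values were seen.

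Of 8 tested genes that use polyunsaturated fatty acids, 2 rose and 2 fell in CLIP, and 2 rose and none fell in WT. LPCAT3, which places these acids in phospholipids, rose in 8 of 8 lines. It had 30.4, 26.2 and 36.6 CPM with siUPF1, against 19.0, 9.56 and 19.1 CPM with siNT, in WT, and 35.4, 28.6 and 38.5 CPM with siUPF1, against 15.2, 11.7 and 15.02 CPM with siNT, in CLIP. MBOAT7, which places arachidonic acid in phosphatidylinositol, rose in 7 lines, by 0.59 in WT and 1.06 in CLIP. LTA4H, an enzyme of leukotriene synthesis, fell in 3 lines and by 0.42 in CLIP, and AGPAT3, an acyltransferase, also fell in 3 lines and by 0.42 in CLIP. The AGPAT3 call in CLIP was lost without all replicate 2 libraries (adjusted p = 0.0846, edgeR).

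Of 16 regulators of lipid synthesis, SCAP, which escorts the SREBF products out of the endoplasmic reticulum, rose in 8 of 8 lines, by 1.08 in WT (61.9 ± 8.67 CPM with siUPF1, 29.4 ± 3.36 CPM with siNT) and by 1.22 in CLIP (65.0 ± 6.31 CPM with siUPF1, 28.1 ± 5.92 CPM with siNT). MLX, a transcription factor partner in sugar-driven lipid synthesis, rose in 8 lines and by 0.46 in CLIP. MBTPS2, a protease that releases the SREBF products, fell in 7 lines and by 0.66 in CLIP. SREBF1 had 57.3, 28.03 and 55.7 CPM with siUPF1, against 19.9, 6.37 and 26.6 CPM with siNT, in WT. In CLIP it had 57.3, 30.5 and 47.9 CPM with siUPF1, against 16.4, 8.77 and 18.3 CPM with siNT. All siUPF1 values exceeded all siNT values within both lines, while replicate 2 was low in each group. SREBF1 was called in CLIP (log2 change 1.64, adjusted p = 0.0203, edgeR) and in WT had a change of 1.44 (adjusted p = 0.0798). The CLIP call was lost without CLIP siNT replicate 2 (adjusted p = 0.104) and without CLIP siUPF1 replicate 1 (0.0722). INSIG1, which retains SCAP in the endoplasmic reticulum, was not called in any line by edgeR, with 1 line at an unadjusted p under 0.05, and had a log2 change of −0.95 in CLIP. It was called in CLIP with the replicate block (−0.93, adjusted p = 2.38e-05, edgeR), with no filter (3.15e-13), in a fit of these groups alone (0.00159) and without all replicate 2 libraries (8.76e-05).

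In fatty acid synthesis 10 genes were tested, and 3 rose and 1 fell in WT, 4 rose and 2 fell in CLIP. SLC25A1, the mitochondrial citrate carrier, rose in 8 lines, by 0.86 in WT and 0.91 in CLIP. ME1, a source of NADPH, fell in 8 lines, by 0.62 in WT and 0.59 in CLIP. ACLY, which makes acetyl-CoA from citrate, fell in 6 lines and by 0.56 in CLIP. FASN, fatty acid synthase, had 977 ± 216 CPM with siUPF1 and 573 ± 141 CPM with siNT in WT, where it rose by 0.77. In CLIP it had 755 ± 141 CPM with siUPF1 and 535 ± 105 CPM with siNT, a change of 0.50 that was not called (adjusted p = 0.0879, edgeR). It was called with the replicate block (1.22e-04), with no filter (2.67e-05), in a fit of these groups alone (0.028) and without all replicate 2 libraries (0.0139). GPAM and MID1IP1, an acyltransferase and an activator of acetyl-CoA carboxylase, were called higher in CLIP by 0.49 and 0.82. The GPAM call was lost without any 1 of CLIP siNT replicates 1 and 3 and CLIP siUPF1 replicates 2 and 3 (adjusted p 0.0698 to 0.231, edgeR). The MID1IP1 call was lost without CLIP siNT replicate 2 (0.117) and CLIP siUPF1 replicate 1 (0.0596).

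Of 12 genes of fatty acid activation and peroxisomal oxidation, 1 rose and 3 fell in CLIP. ACSL6, which activates long polyunsaturated fatty acids, fell in 7 lines. ACSL4, which activates arachidonic acid, and ACSL3 are named after their values were seen: ACSL4 rose in the 7 lines other than CLIP (log2 change 0.31 in CLIP and up to 1.05 in E797R), and ACSL3 rose in 3 lines. ACSL6 had 0.792, 0.735 and 1.02 CPM with siUPF1, against 3.45, 3.19 and 4.89 CPM with siNT, in CLIP. The log2 change of ACSL6 there was −2.17 ± 0.47 (SE, adjusted p = 3.34e-04, edgeR). Its change in WT was −1.24 (adjusted p = 0.0576, edgeR). SCP2, a peroxisomal thiolase and lipid carrier, fell by 0.39 and ABCD3, a peroxisomal transporter, by 0.51 in CLIP. ACSL1 rose there by 0.41. The ABCD3 call was lost without CLIP siNT replicate 2, CLIP siUPF1 replicate 1 or CLIP siUPF1 replicate 3 (adjusted p 0.0656 to 0.102, edgeR).

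**Figure D4:**
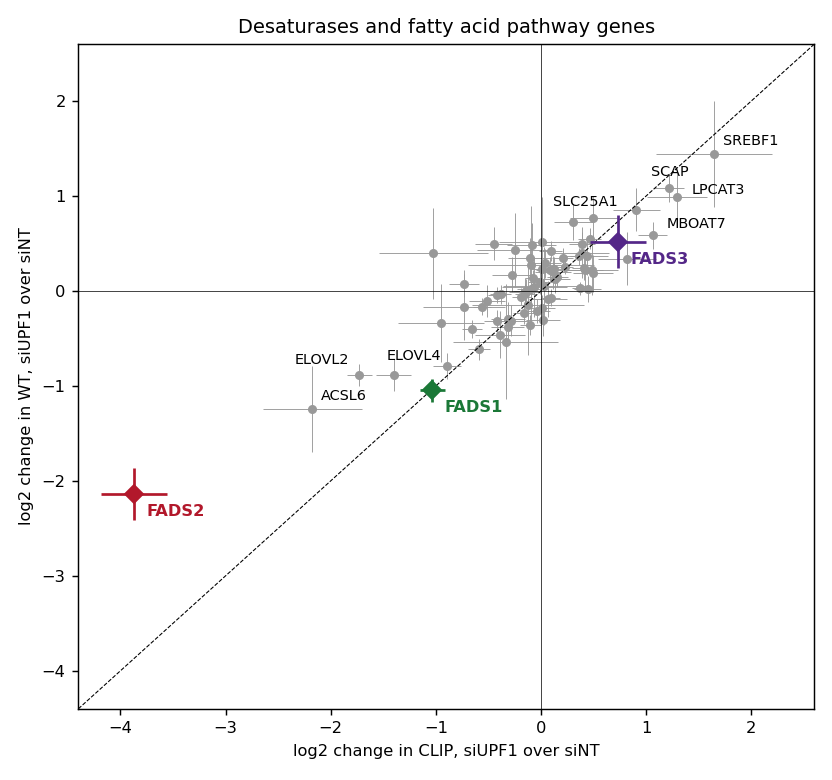
Fitted log2 change (siUPF1 over siNT) in WT (y) against CLIP (x) for the 73 tested pathway genes (grey) and the 3 desaturases (coloured), with SE whiskers; the dashed line marks equal change. FADS2 lies at −2.14 in WT and −3.87 in CLIP, farther from 0 than the pathway genes in both lines, FADS1 lies close to the line of equal change, and ELOVL2 lies above it at −0.89 in WT and −1.73 in CLIP.

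The change of FADS1 and FADS2 was also set against the 11 other protein-coding genes within 300 kb of the cluster, of which 9 were tested. None was called in FE-ER, I757R, IR-ER, E797R, WT or CLIP by edgeR, where 0, 1, 0, 2, 0 and 3 of them had an unadjusted p under 0.05, and DESeq2 called none in these lines either. In F192E 2 fell, DAGLA by 0.70 and FTH1 by 0.20, and in LECY 2 fell, FTH1 by 0.20 and INCENP by 0.38. The median log2 change of the 9 genes was −0.08 in WT and −0.23 in CLIP. FEN1, which overlaps the annotated FADS2 start, had 114 ± 17.6 CPM with siUPF1 and 116 ± 16.5 CPM with siNT in WT, and 94.4 ± 9.50 CPM with siUPF1 and 110.1 ± 4.19 CPM with siNT in CLIP. MYRF, a regulator of myelin genes, had the largest change among the 9 in CLIP, −1.34 ± 0.61 (SE, adjusted p = 0.0872, edgeR), at 0.42 ± 0.05 CPM with siUPF1 and 1.12 ± 0.54 CPM with siNT. BEST1, RAB3IL1, SYT7 and TMEM258 had changes in CLIP of 0.88, 0.29, −0.39 and −0.34. The fit with replicate number as a block called 4 neighbours in CLIP (MYRF, FEN1, INCENP and TMEM258, all lower), 4 in LECY, 1 in E797R and 1 in I757R. The 2 calls in F192E became 0 without F192E siNT replicate 1, and 1 without F192E siNT replicate 2 or F192E siUPF1 replicates 1 or 3. Those in LECY became 0 without LECY siUPF1 replicate 2, and 1 without LECY siNT replicates 1 or 3 or LECY siUPF1 replicate 3. In CLIP there were 2 calls without CLIP siNT replicate 2, and 1 without CLIP siNT replicate 1 or CLIP siUPF1 replicate 1, and in I757R there was 1 without I757R siNT replicate 2.

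**Figure D5:**
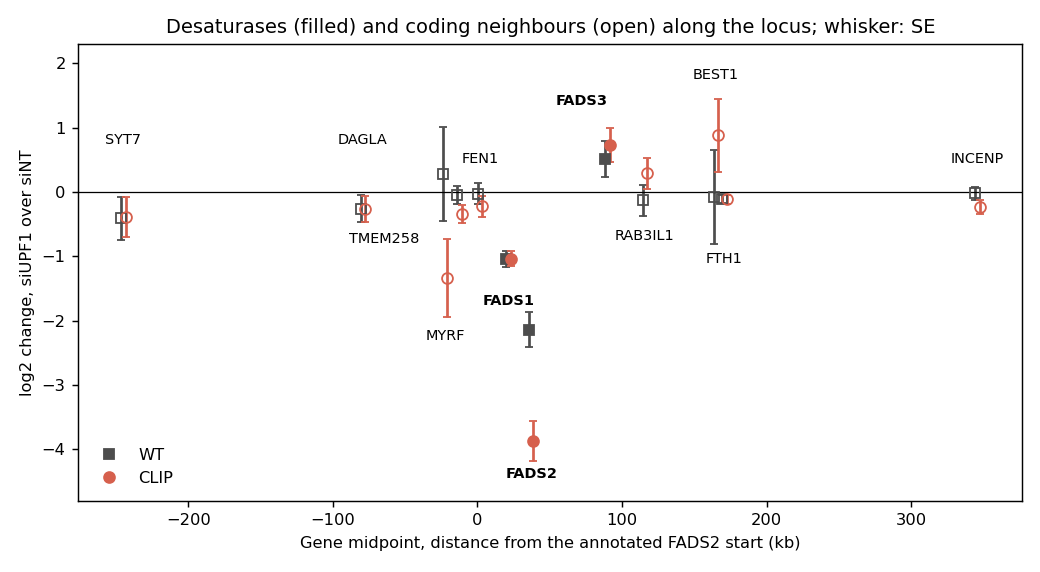
Fitted log2 change (siUPF1 over siNT) of the 3 desaturases (filled) and the 9 tested protein-coding neighbours (open) at each gene's midpoint, in kb from the annotated FADS2 start, in WT (squares) and CLIP (circles), with SE whiskers. FADS2 and FADS1 stand below their neighbours, except that MYRF at −1.34 in CLIP has a wide error and lies beside FADS1 at −1.04, and FADS3 lies above 0 in both lines.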

How the data were processed

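RNA from 48 libraries was analysed as 16 groups of 3, by stable line and siRNA. The deposited values are estimated (expected) counts per gene. Per the submitters' processing notes the authors used cutadapt, STAR, RSEM and DESeq2 with hg38, with versions not given in the sources used here, and whether reads were counted by strand is not given there either. Of the deposited expected counts, 9.16% were not whole, and all were rounded here. Of 58870 genes, 58597 matched GENCODE 29, which supplied positions and exon lengths. Promoter sequences are from RefSeq (GRCh38.p14).

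Genes were kept by filterByExpr with a minimum count of 10 (16697 genes), scaled by TMM (factors 0.951 to 1.03) and fitted over all 48 libraries with edgeR 4.0.16 in R 4.3.3 (robust quasi-likelihood, 16 group means, 32 residual degrees of freedom). P-values were adjusted over all genes tested by Benjamini-Hochberg, and called means below 0.05. Log2 CPM used a prior count of 2, and SEs of log2 changes were derived from the F statistic. The tests were tested on simulated data that held no effect of the replicate number, unlike these libraries. Libraries held 6016999 to 14551820 counts (median 8670884), and no 2 libraries were duplicates. Counts of 16 to 103 for FADS2 with siUPF1 set the precision of its low values.

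The members, gene lists and tests were chosen with earlier results of these data known. Genes named from each list were the up to 3 with the largest rise and up to 3 with the largest fall called in CLIP, plus ELOVL5, ELOVL2, SCD, FASN, SREBF1, INSIG1, CYB5A and CYB5R3, all neighbours tested, and the genes most like each desaturase by Pearson r over group means. A few genes that this rule also names are not reported here. Replicate numbers paired the libraries: same-numbered siUPF1 and siNT libraries deviated together from their group means in 8 of 8 lines (correlations 0.115 to 0.469). Alternatives were DESeq2 1.42.0, median-of-ratios size factors, no filter, a minimum count of 50, a replicate block, a fit of the groups compared alone, and each library left out.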

Additional observations from a re-analysis of the deposited data

Results flagged for a closer look

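For 4 genes of the pathway lists the change with siUPF1 differed between WT and CLIP by edgeR's test of the interaction, with Benjamini-Hochberg adjustment over all genes; log2 differences are WT minus CLIP. ELOVL2 fell less in WT, a difference of 0.84 (adjusted p = 0.00126), and no alternative run ended this call. It rests on the same libraries as the likeness of ELOVL2 to FADS2 and is not independent of it. CYB5A differed by 0.81 (adjusted p = 0.0109), a call lost without CLIP siNT replicate 3 (0.0804), without WT siUPF1 replicate 2 (0.0603), without all replicate 2 libraries (0.223) and in a fit of these groups alone (0.0845). MSMO1 differed by 0.95 (adjusted p = 0.0183), lost without CLIP siNT replicate 1 (0.0829) and without WT siNT replicate 2 (0.0735). HACD3 differed by −0.34 (adjusted p = 0.0402), with 298, 317 and 283 CPM with siUPF1 and 286, 305 and 289 CPM with siNT in WT, against 393, 445 and 420 CPM with siUPF1 and 339, 330 and 308 CPM with siNT in CLIP. That call was lost without any 1 of CLIP siNT replicates 1 and 3, CLIP siUPF1 replicates 2 and 3, WT siNT replicates 2 and 3, and WT siUPF1 replicates 1 and 3 (adjusted p 0.0554 to 0.164), without all replicate 2 libraries (0.239), with no filter (0.387) and in a fit of these groups alone (0.168).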

How the results depend on the processing

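The log2 changes of FADS1 and FADS2 kept their direction in all 8 lines under every alternative run, and no desaturase was called with siNT. FADS3 changed sign for IR-ER (0.05; −0.047 to 0.193 with 1 library left out, among them −0.029 and −0.035) and LECY (0.24; −0.029 to 0.505, and −0.024 without all replicate 2 libraries). The cause was not tested.

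With the replicate block, calls over all genes were 1594 for WT minus CLIP, 4583 for E797R, 5773 for F192E, 5192 for FE-ER, 4756 for I757R, 4715 for IR-ER and 4356 in WT. Pathway genes called higher with the block were 6 for WT minus CLIP, 20 for F192E, 19 for FE-ER, 22 in LECY and 20 in WT, and lower 2, with 11 for E797R, 14 for FE-ER, 14 for I757R and 10 in WT. It called 4 neighbours in CLIP, 4 in LECY, 1 for E797R and 1 for I757R. With siNT it called 43 genes for E797R, 4 for FE-ER and 4 in WT against CLIP, and against WT 7 for E797R, 2 for F192E, 2 for I757R, 3 for IR-ER and 6 in LECY.

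With siNT and no filter, calls against CLIP were 65 for E797R, 38 for F192E, 25 for FE-ER, 61 for I757R, 64 for IR-ER, 26 in LECY and 24 in WT, and against WT 33 for E797R, 32 for F192E, 30 for FE-ER, 46 for I757R, 55 for IR-ER and 33 in LECY. A minimum count of 50 gave 6 for E797R, 1 for F192E, 1 for FE-ER, 2 for I757R, 2 for IR-ER, 3 in LECY and 1 in WT against CLIP, 0 for FE-ER, 2 for I757R and 0 for IR-ER against WT, and 2 neighbours in CLIP. DESeq2 gave 8 for E797R against CLIP, 2 for F192E, 2 for I757R and 2 in LECY against WT, and 5 pathway genes higher for WT minus CLIP. Without a filter 1 neighbour was called for F192E and 1 in LECY, and 0 pathway genes lower for WT minus CLIP. Fits of the groups compared alone gave 359 calls for WT minus CLIP, 1394 for E797R, 1344 for I757R and 1204 in WT, 1 neighbour for F192E and 1 in LECY, 6 pathway genes higher for I757R and 7 in WT, 4 lower for E797R and 0 lower for WT minus CLIP. With siNT they gave 2 in LECY against CLIP and 0 for E797R, FE-ER, I757R and LECY against WT.

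Leaving libraries out gave 299 to 760 calls for WT minus CLIP, 1723 to 2203 for E797R, 1756 to 2201 for I757R, 1768 to 2288 for IR-ER and 1615 to 2378 in WT, each lowest without all replicate 2 libraries. Pathway genes higher were 6 to 11 for E797R, 6 to 11 for I757R, 6 to 10 for IR-ER, 8 to 12 in LECY and 7 to 13 in WT, and 0 to 1 lower for WT minus CLIP. Neighbours called were 0 to 2 in CLIP, 0 to 2 for F192E, 0 to 1 for I757R and 0 to 3 in LECY. With siNT, calls against CLIP were 1 to 3 for F192E, 1 to 2 for FE-ER, 1 to 3 for I757R, 2 to 5 for IR-ER, 1 to 5 in LECY and 1 to 2 in WT, and against WT 0 to 1 for E797R, 0 to 2 for I757R and 0 to 1 in LECY. Single named genes were refitted this way for CLIP and for WT minus CLIP. Counts of 26 to 88.8 limit FADS3.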
